A study of Mus musculus with 13 samples.

Results

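The genes described here are 10 genes of Wnt secretion, reception and feedback inhibition: Porcn, Wls, Wnt5a, Axin2, Sfrp1, Sfrp2, Dkk2, Dkk3, Fzd1 and Fzd2. They are 10 of the 19938 genes tested, and each is the transcript cluster (the set of array probes assigned to 1 gene) annotated to its symbol, which was the only one for every member. They were chosen by name with earlier results of these data known, on the log2 values over 0 to 18 h at 32 and 37°C, so their values are given as a description and are not tested for the group. The study exposed primary fibroblasts of mouse embryos, cells of connective tissue that were bought from a supplier, to mild hypothermia or to normothermia, and looked for genes whose expression moved steadily with time. Normothermia means incubation at 37°C for 0, 0.5, 1, 2, 4, 8 or 18 h, and hypothermia means that the incubator was lowered to 32°C for 0.5, 1, 2, 4, 8 or 18 h. All dishes were grown in high glucose medium with serum at 37°C until subconfluent before the temperature was changed, and strain, genotype and embryo age are not given in the sources used here. RNA of 3 dishes was pooled for each of 13 Affymetrix mouse gene arrays, so there is 1 array per condition, and the array at 0 h starts both time series.

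Wnt proteins are secreted signals that carry a lipid. Porcupine, the product of Porcn, is an acyltransferase of the endoplasmic reticulum membrane that attaches palmitoleate to Wnt proteins, and Wntless, the product of Wls, then carries the lipidated Wnt to the cell surface. There it binds a Frizzled receptor with a co-receptor, which either stabilises beta-catenin and switches on targets such as the feedback inhibitor Axin2 or, for ligands such as Wnt5a, acts on cell polarity and movement, while secreted Frizzled-related proteins (Sfrp) bind Wnts and Dickkopf proteins (Dkk) act on the co-receptor. In humans, loss of PORCN causes focal dermal hypoplasia, a disorder of skin and connective tissue.

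The promoter sequences below belong to the members whose start sites were listed in the RefSeq promoter table for the mouse build GRCm38.p6, which covered 5 of the 10 members. Shown are the 100 bases before the start of Sfrp2, Dkk2 and Axin2. Sfrp2 and Dkk2 are the pair of secreted inhibitors whose arrays at 8 and 18 h at 32°C were below the 0 h level. This trait was not particular to 32°C. At 8 and 18 h at 37°C Sfrp2 was 760 and 869, against 894 at 0 h. Dkk2 was 1027 and 1175 at these times at 37°C, against 1204 at 0 h. Axin2 is the gene in the group that answers to beta-catenin. Each sequence is written 5′ to 3′ on the strand of the gene, which was the plus strand for all, with matches to the searched motifs in capitals. The window of Sfrp2 lies at chr3:83766221-83766320, that of Dkk2 at chr3:132085192-132085291 and that of Axin2 at chr11:108920249-108920348.
Sfrp2: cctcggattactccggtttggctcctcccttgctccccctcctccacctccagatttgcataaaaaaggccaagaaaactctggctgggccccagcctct
Dkk2: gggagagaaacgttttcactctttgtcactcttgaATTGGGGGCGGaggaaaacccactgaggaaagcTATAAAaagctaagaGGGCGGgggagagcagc
Axin2: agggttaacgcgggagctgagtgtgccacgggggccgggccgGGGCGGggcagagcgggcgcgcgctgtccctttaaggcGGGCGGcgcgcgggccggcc

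The whole windows of 300 bases, 250 before the start and 50 from the start on, were searched on both strands. The GC box GGGCGG occurred in Dkk2, Axin2 and Wls and in 35.7% of the 32851 promoters of the table, at 60 and 17 bases before the start in Dkk2 and at 58 and 20 bases before it in Axin2. The TATA box TATAAA occurred in Dkk2, 32 bases before the start, and in Fzd1, and in 13.6% of all promoters. The CCAAT box, which in Dkk2 lies on the opposite strand directly beside the upstream GC box, occurred in Dkk2 and Axin2 and in 37.4% of all. The core CTTTG followed by AA, by AT, by TT or by TA, which TCF/LEF factors can bind, occurred in 16.9% of all promoters and in none of the 5 windows, and the E-box CACGTG in 7.15% and in none. A match is a description of the letters only.

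Beside the Wnt genes, the arrays had medians between 145 and 149.8 on the linear scale, and Cirbp, which encodes a cold-inducible RNA-binding protein, stood at 3.63 times its 0 h level after 18 h at 32°C and at 1.11 times after 18 h at 37°C. All 14 fibroblast markers lay between the 81.6th and the 100th percentile of the mean signal of all genes, a rough check because signals of different probes are not on 1 scale. Of the markers of other cell types, 4 of 5 for macrophages, 5 of 5 for endothelium and 5 of 6 for epithelium lay below the median gene. So did 4 of 5 for neural cells, 3 of 5 for skeletal muscle and 2 of 4 for cartilage. The highest of the neural, muscle and cartilage lists were Map2 at the 86.6th, Acta1 at the 93.6th and Sox9 at the 80.9th percentile. The summed intensity of the macrophage list was 367 to 396 at 37°C and 390 to 522 at 32°C, with slopes at 32°C of 0.083 ± 0.026 (SE) for Cd68 and 0.071 ± 0.017 for Csf1r on the log2 scale per time point. Slopes of the other macrophage markers were 0.010 ± 0.015 for Ptprc, 0.026 ± 0.015 for Adgre1 and 0.011 ± 0.017 for Itgam. The sum of the neural list was 1575 to 1826 at 37°C and 1097 to 1660.5 at 32°C. Slopes at 32°C were −0.12 ± 0.025 for Tubb3 and −0.111 ± 0.028 for Map2. For the rest of that list they were −0.006 ± 0.018 for Sox2, 0.011 ± 0.019 for Gfap and 6.9e-05 ± 0.013 for Olig2. The sum of the epithelial list was 626 to 667 at 37°C and 639 to 954 at 32°C. Slopes at 32°C in this list had both signs. They were −0.060 ± 0.079 for Krt14, −0.037 ± 0.069 for Krt5 and −0.002 ± 0.028 for Cdh1. For Krt18, Krt8 and Epcam they were 0.033 ± 0.015, 0.021 ± 0.015 and 0.017 ± 0.015. The sums of the endothelial list were 353 to 386 and 359 to 390, those of the muscle list 2967 to 3133 and 2799 to 3310, those of the cartilage list 1365 to 1749 and 1324 to 1750, and those of the fibroblast list 64385 to 66155 and 60477 to 65885. The part of these shifts in the results for Wnt genes was not tested.

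Porcn, transcript cluster 10603492, rose at 32°C. Its intensity was 227 at 0 h and then 249, 252, 266, 287, 342 and 377 after 0.5, 1, 2, 4, 8 and 18 h at 32°C. At 37°C it was 239, 238, 257, 279, 248 and 265 at the same times. The series at 32°C was higher at every time point than at the one before, whereas that at 37°C was highest at 4 h and lower again at 8 h. After 18 h Porcn stood at 1.66 times its 0 h level at 32°C and at 1.17 times at 37°C. A rise at all 6 steps at 32°C was found in 0.0953% of all genes. In bulk RNA, more expression per cell and more cells of an expressing type cannot be told apart.

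Porcn was higher at 32 than at 37°C in 6 of 6 pairs of arrays of the same time, as were 4.79% of all genes. The log2 differences were 0.05, 0.08 and 0.05 at 0.5, 1 and 2 h and 0.04, 0.46 and 0.51 at 4, 8 and 18 h. The early pairs therefore had a mean of 0.06 ± 0.02 (SD, n = 3) and the late pairs a mean of 0.34 ± 0.26 (SD, n = 3), and the late mean came from the pairs at 8 and 18 h. In the order of the 13 arrays, 32°C at 18 h came first and 32°C at 8 h came second, and each lay further above the next array than the SD of the 7 arrays at 37°C, which was 0.10 on the log2 scale. Among the other 11 arrays, from 287 to 227, no neighbours in the order differed by more than that SD. The fitted slope was 0.118 ± 0.016 (SE) on the log2 scale per time point at 32°C and 0.035 ± 0.014 at 37°C.

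Wls, transcript cluster 10497149, encodes the carrier of lipidated Wnt and stayed within a narrow range. It was 3958 at 0 h and between 3842 and 4412 over the 13 arrays, with 4324 after 18 h at 37°C and 4412 after 18 h at 32°C. The differences at matched times, of which 3 were above and 3 below 0, had a mean of −0.02 ± 0.06 (SD, n = 6). The slopes at 32 and 37°C were 0.031 ± 0.014 and 0.015 ± 0.009 (SE), and neither passed the threshold over all genes.

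**Figure D1:**
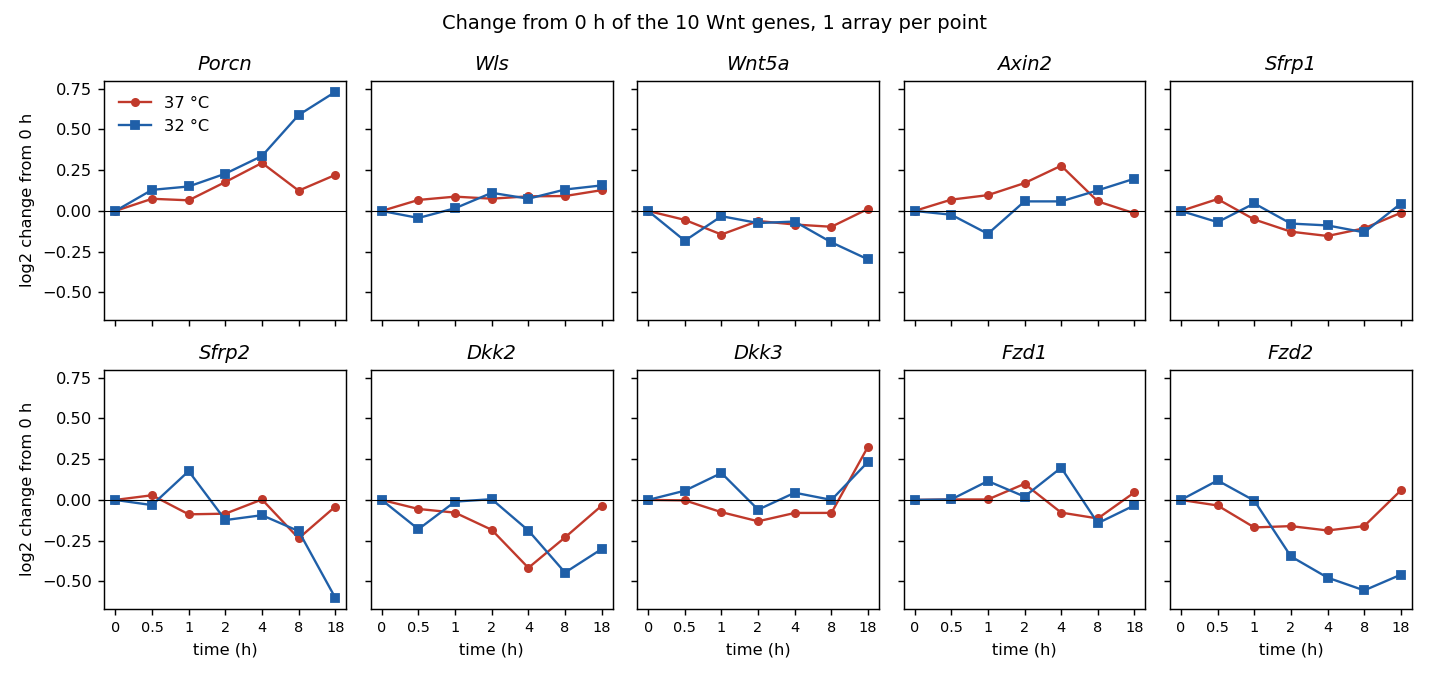
Log2 change from the shared array at 0 h of the 10 genes against time (h), at 32°C (blue squares) and 37°C (red circles), with 1 array of pooled RNA per point and therefore no error bars. Porcn at 32°C ends 0.73 above its start and Fzd2 and Sfrp2 at 32°C end 0.46 and 0.60 below theirs.

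Wnt5a, the ligand in the group and a ligand of the polarity arm, transcript cluster 10413482, was 888 at 0 h. At 32°C it was 782, 868, 843, 849, 777 and 723 over the 6 later times, against 855, 803, 851, 838, 830 and 896 at 37°C. Up to 4 h the differences had both signs, and 32°C was the lower at 8 and 18 h. The log2 difference was −0.10 at 8 h and −0.31 at 18 h, and the late mean of −0.13 ± 0.17 (SD, n = 3) did not exceed its spread.

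Among the receptors, Fzd2, transcript cluster 10381603, was lower at 32 than at 37°C from 2 h on. It was 1777 at 0 h and 1930, 1771, 1397, 1277, 1209 and 1293 over the 6 later times at 32°C. At 37°C it was 1735, 1581, 1589, 1560, 1590 and 1850. The 4 arrays at 32°C from 2 h on were the 4 lowest of all 13, and the 2 h array at 32°C lay 0.16 on the log2 scale below the lowest array at 37°C, against an SD of 0.10 over the 7 arrays at 37°C. The order among those 4 arrays had gaps of 0.11, 0.02 and 0.08, of which only the first was wider than that SD. At 0.5 and 1 h, in contrast, 32°C was the higher by 0.15 and 0.16.

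The differences of Fzd2 widened from −0.19 at 2 h to −0.29, −0.39 and −0.52 at 4, 8 and 18 h. Their late mean of −0.40 ± 0.11 (SD, n = 3) corresponded to 0.758 of the 37°C level, and 2.22% of all genes had a late mean at least as far from 0, against 3.87% for Porcn. Of all genes, 12.2% were lower at 32°C at each of 2, 4, 8 and 18 h. After 18 h Fzd2 stood at 0.728 of its 0 h level at 32°C and at 1.04 times at 37°C, and its slopes were −0.114 ± 0.022 (SE) and −0.003 ± 0.018 per time point.

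Fzd1, transcript cluster 10527936, encodes a close relative of Fzd2. It was 1102 at 0 h and lay between 998 and 1263 at 32°C and between 1018 and 1179 at 37°C, and both series ended near the start, at 1077 and 1138. The mean difference over the pairs was 0.03 ± 0.14 (SD, n = 6), and the largest difference, 0.28 at 4 h, was followed by −0.03 and −0.08. Sequences of probes were not used here, so cross-hybridization between Fzd1, Fzd2 and Fzd7 was not tested.

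**Figure D2:**
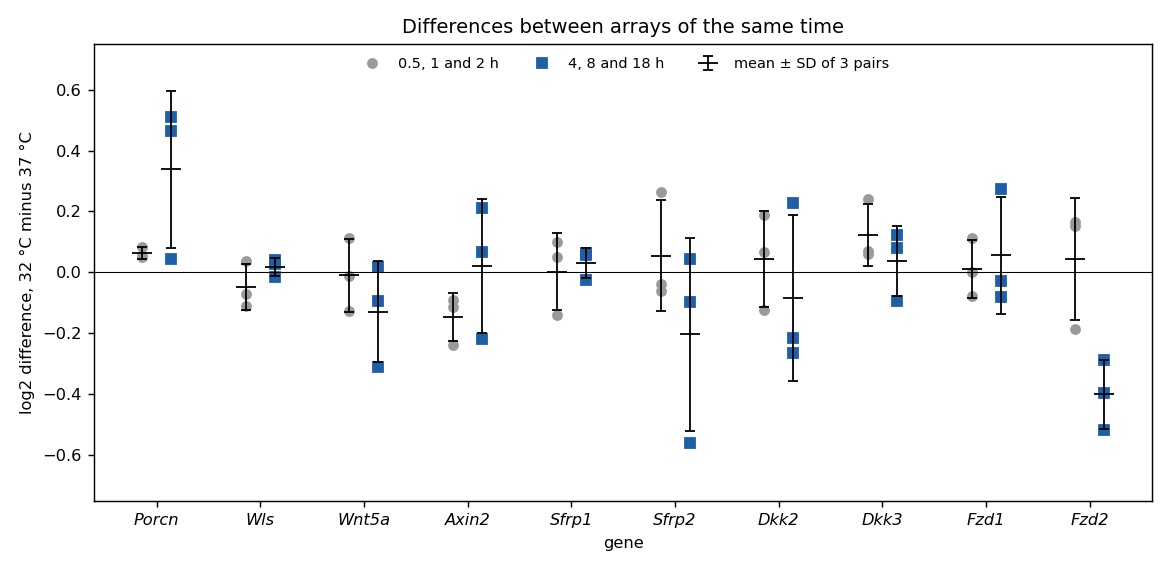
Log2 difference between the arrays at 32 and 37°C of the same time for each of the 10 genes, with the pairs at 0.5, 1 and 2 h as grey circles, those at 4, 8 and 18 h as blue squares, and the mean ± SD of 3 pairs in black. All 3 late pairs of Fzd2 lie below 0 and all 6 pairs of Porcn above it.

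The secreted Frizzled-related proteins of the group differed from each other. Sfrp2, transcript cluster 10492798, was 894 at 0 h, and 875, 1011, 821, 838, 783 and 590 over the 6 later times at 32°C. At 37°C it was 912, 841, 844, 896, 760 and 869. The differences had both signs up to 8 h and were at most 0.26, and the 18 h array at 32°C was the lowest of all 13, 0.36 on the log2 scale below the next one. It stood at 0.660 of the 0 h level, and the 18 h array at 37°C at 0.972. The low level of Sfrp2 therefore rested on 1 array, with a difference of −0.56 at 18 h after 0.04 at 8 h and a late mean of −0.20 ± 0.32 (SD, n = 3).

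Sfrp1, transcript cluster 10570957, was 3661 at 0 h, 3343 to 3780 at 32°C and 3291 to 3851 at 37°C, and after 18 h it was 3777 at 32°C and 3632 at 37°C. The mean over the pairs was 0.02 ± 0.09 (SD, n = 6).

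Dkk2, transcript cluster 10496125, an antagonist at the co-receptor, was 1204 at 0 h and 1063, 1195, 1208, 1057, 884 and 977 at the later times at 32°C, against 1159, 1141, 1060, 902, 1027 and 1175 at 37°C. Both series left the 0 h level and came part of the way back, with their lowest arrays at 4 h at 37°C and at 8 h at 32°C. The level at 18 h was 0.812 of the 0 h level at 32°C and 0.976 at 37°C. The differences changed sign from 0.23 at 4 h to −0.22 and −0.27 at 8 and 18 h, so that the late mean of −0.08 ± 0.27 (SD, n = 3) was within its spread. Dkk3, transcript cluster 10567010, the divergent member of the family, was 1398 at 0 h and 1644 after 18 h at 32°C, but 1754 after 18 h at 37°C. It was higher at 32°C in 5 of 6 pairs, with a mean of 0.08 ± 0.11 (SD, n = 6), and lower at 18 h.

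Axin2, transcript cluster 10382228, encodes a scaffold of the complex that destroys beta-catenin and is itself switched on by beta-catenin. It was 159 at 0 h and 156, 144, 166, 166, 173 and 182 at the later times at 32°C. At 37°C it was 167, 170, 179, 193, 166 and 157. The series crossed: 32°C was the lower in the 4 pairs from 0.5 to 4 h, by 0.09 to 0.24, and the higher at 8 and 18 h, by 0.07 and 0.21. The mean over the pairs was −0.06 ± 0.17 (SD, n = 6). The mean signal of Axin2 lay at the 47.9th percentile of all genes, that of Porcn at the 56.6th and those of the other 8 between the 79.1st and the 97.9th, and calls of detection were not used here.

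Over the whole table, limma's slope at 32°C passed a Benjamini-Hochberg adjusted p of 0.05 for 9 genes that rose, 0.0451% of all, and for 10 that fell, 0.0502%, and of the members 1, Porcn, was among them. At 37°C 0.0% passed, and none of the members. The divergence of 32 from 37°C, the slope of the pair differences on time order when the line is held at 0 at 0 h, passed for 1.17% of all genes in the upward and 1.66% in the downward direction, and of the members for Porcn upwards, at 0.065 ± 0.014 (SE) per time point, and for Fzd2 downwards, at −0.069 ± 0.016. The split of all calls in the divergence, 234 upwards and 331 downwards, turned to 107 and 60 on relative ranks within each array. The temperature effect averaged over matched times passed for 0.015% upwards and 0.0552% downwards, and for none of the members. The slope of Porcn no longer passed when any single time point other than 2 h was left out, and with a separate level term for 32°C neither divergence passed. Because the members were chosen with these values known, nothing is read from these counts. The other 8 members had divergences from −0.035 for Sfrp2 to 0.012 for Dkk3.

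Over the 13 arrays, the members whose log2 level moved most nearly opposite to Porcn were Fzd2, with a Pearson correlation of −0.77, Sfrp2 with −0.73, Wnt5a with −0.69 and Dkk2 with −0.68. Wls had 0.66 and Axin2 0.48. These values describe arrays that share the 0 h start and the time course. Of 4477 other genes whose log2 range over the arrays was at least 0.5, the 5 most like Porcn were Inpp5k, an inositol phosphatase, with 0.96, Nqo1, the quinone reductase, with 0.94, Wdr45, an autophagy protein, with 0.93, Myl4, a myosin light chain, with 0.92 and Ada, adenosine deaminase, with 0.92. The 3 most opposite were Stxbp4, a syntaxin-binding protein, with −0.95, Cep164, a centriole protein, with −0.94 and Hsph1, a heat shock protein of the Hsp110 family, with −0.94. After 18 h at 32°C, Nqo1 stood at 3.02 times its 0 h level and Inpp5k at 1.61 times.

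The 12 lists of other Wnt genes, 126 measured besides the members, gave few calls. In the divergence, 1 of them, Tle1, passed the adjusted threshold downwards (0.794%) and none upwards, against the 1.66% and 1.17% of all genes. At an unadjusted p under 0.05, 10 of 126 (7.94%) were lower and 5 (3.97%) higher in the divergence, against 9.9% and 8.52% of all genes. In the slope at 32°C none passed the adjusted threshold, and 13 (10.3%) had a slope below 0 and 10 (7.94%) one above 0 at the unadjusted one, against 9.35% and 7.14% of all genes. The median divergence was −0.00143 over the 126 genes and 0.00202 over all genes. In the slope at 37°C none passed the adjusted threshold. At the unadjusted one 10 of 126 (7.94%) rose and 1 (0.794%) fell, against 721 and 435 of all 19938 genes. The share that rose at 37°C was above that of all genes, which was not tested. The shares in the divergence and in the slope at 32°C lay near or below those of all genes. The lists are therefore described by their genes.

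Tle1, a Groucho-type corepressor that TCF factors recruit, had an intensity of 505 at 0 h, 514, 522, 466, 437, 396 and 476 at the later times at 32°C and 488, 505, 538, 535, 573 and 565 at 37°C. From 2 h on 32°C was the lower in every pair. The divergence was −0.063 ± 0.015 (SE), with limma's adjusted p = 0.0484, and did not pass after quantile normalization (0.0589), on relative ranks (0.105), with every transcript cluster as a row (0.0522) or on a log2 time scale (0.0539). Of the 12 measured TCF factors and nuclear cofactors, 10 had a divergence below 0 and 2 above, and 1 passed the adjusted threshold. Over all 19938 genes, 9216 divergences were below 0 and 10722 above, which is the base for this and the later splits of signs. None of these splits was tested. Pygo2, a cofactor that binds Bcl9, had a divergence of −0.043 ± 0.015, and Ctnnbip1, an inhibitor of beta-catenin, one of 0.029 ± 0.013, and neither passed.

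**Figure D3:**
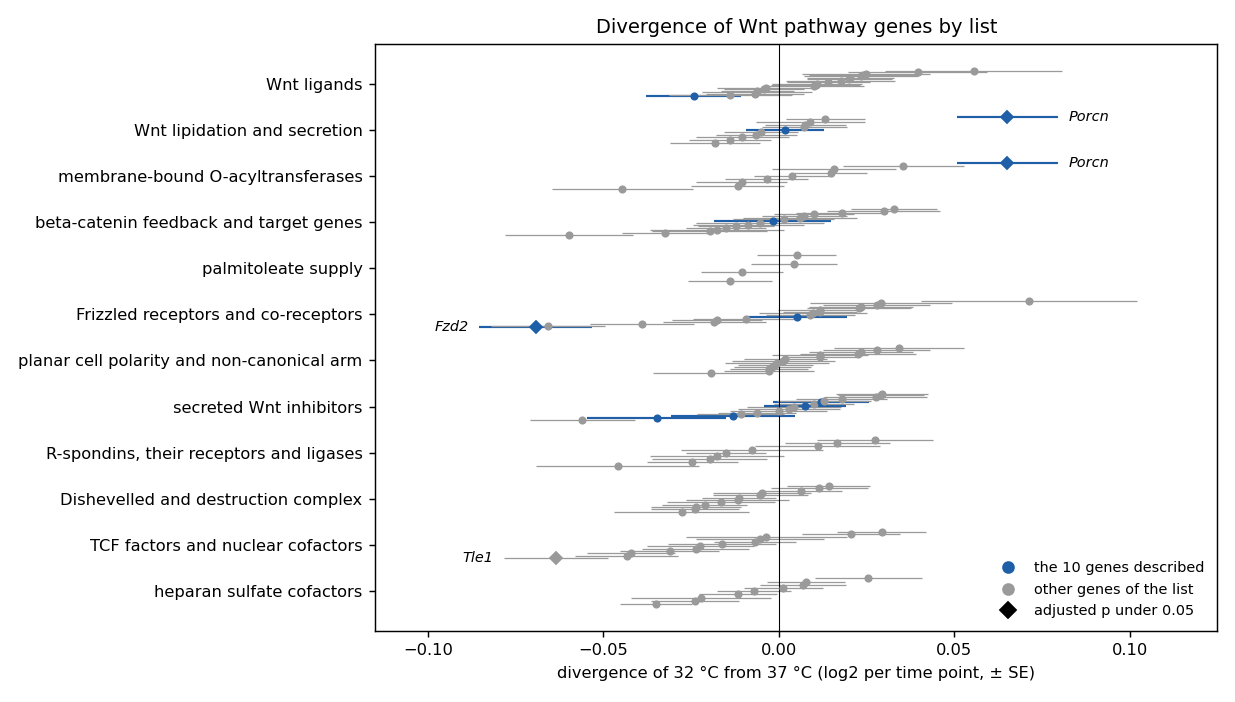
Divergence of 32 from 37°C (log2 per time point, ± SE) for the Wnt pathway genes, grouped by list, with the 10 genes described in blue, other genes in grey and diamonds for an adjusted p under 0.05. Porcn stands in 2 lists to the right of 0, Fzd2 and Tle1 stand to the left, and most genes straddle 0 within their SE.

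The other genes of Wnt lipidation and secretion stayed close to 0. Divergences in the list of 11 ran from −0.018 for Trabd2b, a metalloprotease that cleaves Wnt, to 0.013 for Tmed10, a cargo receptor of early secretion, apart from Porcn at 0.065. The enzyme family of Porcn, the membrane-bound O-acyltransferases, had 9 measured genes. Mboat1, a lysophospholipid acyltransferase, was 410 at 0 h and 409, 399, 398, 351, 312 and 278 at the later times at 32°C, against 373, 371, 359, 349, 371 and 423 at 37°C. Up to 4 h 32°C was the higher in each pair, and at 8 and 18 h the lower. Its slope of −0.094 ± 0.018 (SE) at 32°C did not pass the threshold over all genes, with limma's adjusted p = 0.068. Dgat1, which makes triacylglycerol, stood at 1.32 times its 0 h level after 18 h at 32°C and at 1.01 times at 37°C. The stearoyl-CoA desaturases, which make the palmitoleate that Porcn transfers, had divergences between −0.014 for Scd2 and 0.005 for Scd1, and Scd2 stood at 0.834 of its 0 h level after 18 h at 32°C and at 0.941 at 37°C.

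The Frizzled receptors and co-receptors spread in both directions, with 16 genes measured, 10 divergences above 0 and 6 below. Fzd3 was 154 at 0 h, and 132, 141 and 138 at 4, 8 and 18 h at 32°C, against 190, 193 and 159 at 37°C. Its divergence of −0.066 ± 0.016 (SE) was near that of Fzd2 but did not pass, with limma's adjusted p = 0.056. Fzd6 was 494 at 0 h, 619, 916, 760 and 468 at 2, 4, 8 and 18 h at 32°C and 566, 469, 515 and 513 at the same times at 37°C, so the temperatures stood furthest apart at 4 h and were close again at 18 h. Its divergence of 0.071 ± 0.031 did not pass. Fzd7, with Fzd1 the nearest relative of Fzd2, was 1268 at 0 h and highest at 2 h at 37°C, with 2139, and at 4 h at 32°C, with 2052, and its late mean was 0.13 ± 0.08 (SD, n = 3).

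**Figure D4:**
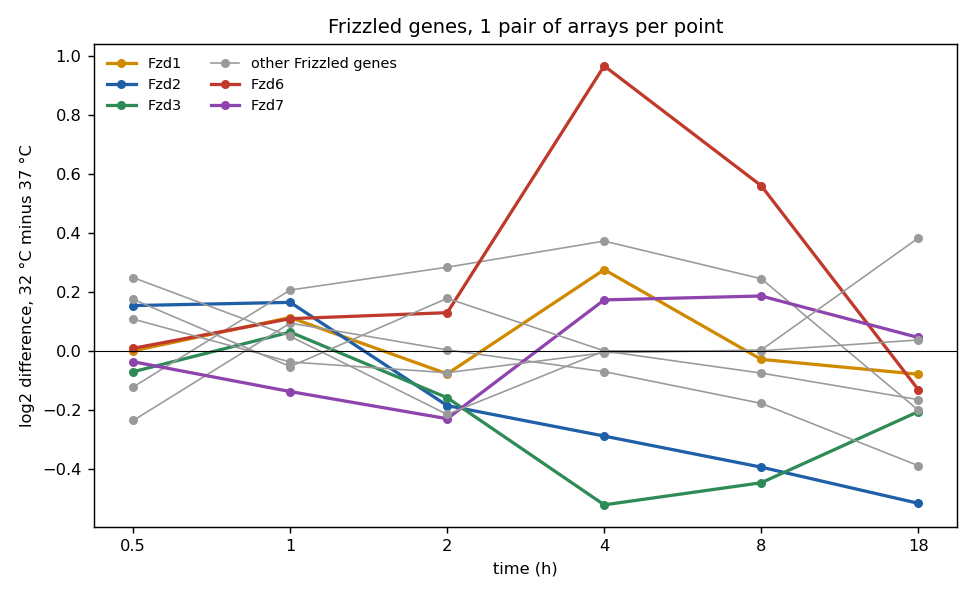
Log2 difference between 32 and 37°C for the 10 Frizzled genes against time (h), 1 pair of arrays per point and no error bars. Fzd2 goes down to −0.52 at 18 h, Fzd3 turns back after 4 h, and Fzd6 is highest at 4 h.

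Of the 19 Wnt ligands, Wnt5a included, 12 had a divergence above 0 and 7 below, and none passed. Wnt11, a ligand of the polarity arm as Wnt5a is, was 147 at 0 h and 151, 134, 172, 258, 227 and 201 at the later times at 32°C, against 145, 170, 218, 203, 164 and 142 at 37°C. From 4 h on 32°C was the higher, with a late mean of 0.44 ± 0.08 (SD, n = 3), where that of Wnt5a was −0.13 ± 0.17. The divergence of Wnt11 was 0.056 ± 0.025 (SE) and that of Wnt5b, the nearest relative of Wnt5a, 0.018 ± 0.016, and neither passed.

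Of the 16 secreted inhibitors and their receptors, 10 had a divergence above 0 and 6 below, and none passed. The relatives of Sfrp1 and Sfrp2 gave 0.029 ± 0.013 (SE) for Frzb, 0.029 ± 0.012 for Sfrp4 and 0.013 ± 0.013 for Sfrp5, where Sfrp2 gave −0.035 ± 0.020. Frzb and Sfrp4 were each higher at 32°C in 6 of 6 pairs, as were 4.79% of all genes. The mean signal of Sfrp4 was low, at the 23rd percentile of all genes. Those of Sfrp5, Sostdc1 and Dkk4 lay between the 30.2nd and the 35.2nd. Dkk1 gave 0.018 ± 0.013 and Dkk4 0.003 ± 0.015. The lowest of the list was Sostdc1, a bone morphogenetic protein and Wnt antagonist, at −0.056 ± 0.015, with limma's adjusted p = 0.075. All 8 relatives of the members on a separate list, among them Fzd7 and Axin1, had divergences above 0, from 0.003 to 0.029, and none passed. Those of Fzd7 (0.010 ± 0.015), Axin1 (0.006 ± 0.012) and Dkk4 were smaller than their SE. Of all 19938 genes, 10722 had a divergence above 0.

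Among 16 measured targets and feedback genes of beta-catenin, Axin2 included, 7 divergences were above 0 and 9 below, and none passed. The Naked cuticle genes, which encode inhibitors of Dishevelled, stood on opposite sides, with 0.033 ± 0.012 (SE) for Nkd2 and −0.032 ± 0.012 for Nkd1. Nkd1 did not fall at 32°C: its slopes were 0.010 ± 0.019 at 32°C and 0.052 ± 0.015 at 37°C. Those of Nkd2 were 0.042 ± 0.022 and 0.014 ± 0.023. Ccn4, a matrix-associated target also called Wisp1, was 1823, 1365 and 1878 at 4, 8 and 18 h at 32°C and 2064, 2126 and 2160 at 37°C, and its divergence of −0.060 ± 0.018 did not pass, with limma's adjusted p = 0.109. Ccnd1, which encodes cyclin D1, stood at 0.844 of its 0 h level after 18 h at 32°C and at 0.992 at 37°C.

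In the remaining lists no gene passed. The R-spondins, which raise Wnt signalling, with their receptors and ligases ran from −0.046 ± 0.023 (SE) for Rspo2 to 0.027 ± 0.016 for Lgr4, over 9 genes. Of 12 genes of Dishevelled and the destruction complex, 9 were below 0 and 3 above, from −0.028 for Dvl3 to 0.014 for Csnk1a1, and Ctnnb1, which encodes beta-catenin, stood at 0.983 of its 0 h level after 18 h at 32°C and at 1.02 times at 37°C. The 14 genes of the polarity arm ran from −0.019 for Prickle3 to 0.034 for Prickle1. Among 9 heparan sulfate genes, Sulf1 encodes a sulfatase that edits heparan sulfate and so the binding of Wnts. It was 3007, 3137 and 2796 at 4, 8 and 18 h at 32°C, against 3377, 3594 and 3239 at 37°C. Its divergence was −0.035 ± 0.010, with limma's adjusted p = 0.1.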

How the data were processed

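The values that the authors deposited are linear intensities of transcript clusters on 13 arrays of pooled RNA. The summary and normalization of the probes are not stated in the sources used here. Array medians differed by 0.046 on the log2 scale, and the intensities were taken as they were and log2 transformed. Of 28853 transcript clusters, 21789 carried 1 gene symbol, and for 999 genes with more than 1 the cluster with the highest mean was used, leaving 19938 genes. The fits were made with limma 3.58.1 (lmFit, eBayes) in R 4.3.3, 2-sided, with Benjamini-Hochberg adjustment over all genes, and figures with matplotlib 3.10.9. The slope is on the order of the 7 time points. The divergence uses 13 arrays, a block for each time point and no level term for 32°C. The temperature effect uses the 6 pairs. The fits were also run on simulated data with independent noise. Without a level term for 32°C, the divergences given here for Wnt genes were smaller than the simulated slopes. That run therefore does not cover divergences of this size. No replicate arrays exist, so errors are the spread around a line or between pairs, and precision is limited by the few arrays. Some genes had identical values on different arrays. Axin2 was 165.504 at 2 and 4 h at 32°C and at 8 h at 37°C. Fzd1 was 1103.64 at 0.5 h at both temperatures and at 1 h at 37°C. The source of such ties and their effect on the errors were not tested.

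The members and all gene lists were chosen with earlier results of these data known. Named genes are the members, pathway genes past the threshold, close relatives of members, in each list the 2 highest and 2 lowest divergences and the 2 highest levels, the 5 genes most like and the 3 most opposite to Porcn, and Cirbp. Tcf7, Soat1 and Soat2 were not analysed here. The alternatives were quantile normalization, relative ranks, a filter on dim genes, every transcript cluster as a row, an intensity trend in the prior variance, a log2 time scale, a separate term for 32°C, no time block, and leaving out each time point. Promoters are from RefSeq, build GRCm38.p6. Coordinates of probes, hypoxia arrays and reference RNA arrays were not used here.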

Additional observations from a re-analysis of the deposited data

Results flagged for a closer look

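The time courses at both temperatures differed, by the test of the divergence over all genes, for 3 Wnt genes: Porcn at 0.065 per time point on the log2 scale, Fzd2 at −0.069 and Tle1 at −0.063. Of all 136 measured pathway genes, 1 thus passed upwards and 2 downwards, against 1.17% and 1.66% of all genes, so nothing is read from the count. Porcn and Fzd2 are members chosen with these values known. In each case limma's adjusted p was close to the threshold (0.042 for Porcn, 0.0478 for Fzd2 and 0.0484 for Tle1), and leaving out 1 time point at a time kept it under 0.05 in 2 of 6 fits for Porcn and in 1 of 6 each for Fzd2 and Tle1. The call for Porcn was lost without the pair at 0.5, 4, 8 or 18 h, and those for Fzd2 and Tle1 without any pair but that at 1 h. On relative ranks none of the 3 passed, with every transcript cluster as a row Fzd2 and Tle1 did not, and after quantile normalization or on the log2 time scale Tle1 did not. Over the fits that left out 1 time point, the divergences ran from 0.052 to 0.077 for Porcn, from −0.076 to −0.058 for Fzd2 and from −0.078 to −0.047 for Tle1.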

How the results depend on the processing

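The number of genes past the threshold depended on the setting, and the cause was not tested. In the slope at 32°C, 19 genes passed as reported, 52 after quantile normalization, 2 on relative ranks, 211 among genes above the median level, 48 with an intensity trend in the prior variance, 95 on the log2 time scale and 2 to 23 without 1 time point. Of the members 1 passed, 0 on relative ranks, 2 above the median level and 0 to 1 without 1 time point. In the divergence, 565 genes passed (234 up, 331 down), 167 on relative ranks (107 up, 60 down), 4 with a separate term for 32°C and 40 to 627 without 1 time point, with 81 up and 53 down without 18 h. Of the members 2 passed, 0 on relative ranks or with a separate term, 1 with every transcript cluster as a row and 0 to 2 without 1 time point. In the temperature effect at matched times, 14 genes passed, 0 after quantile normalization, 0 on relative ranks, 5 with every transcript cluster, 32 with the intensity trend and 0 to 7 without 1 time point, and no member passed under any of these. At 37°C 0 genes passed under every alternative run.

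The slope of Porcn at 32°C lay between 0.104 and 0.126 without 1 time point, and its adjusted p from limma between 0.0499 and 0.171. Once 32°C had its own level term, the divergences were 0.097 for Porcn, −0.147 for Fzd2 and −0.098 for Tle1, and none passed. No direction of Porcn, Fzd2 or Tle1 reversed under the alternatives run. No member had a second transcript cluster that could take the place of the one used. Arrays were paired by time point in the divergence and the matched effect, and a block by replicate number could not be fitted because each group is 1 array. With 1 array per condition, a value that rests on 1 array, such as Sfrp2 after 18 h at 32°C, has no replicate check.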
